A study of Mus musculus with 12 samples.

Results

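Microtubule-associated proteins bind the microtubules that run through axons and dendrites. They stabilise them, space them apart or, in the case of the stathmins, hold free tubulin and favour disassembly. Several of their mRNAs are known for alternative isoforms and for transport into neurites, and the 3′ end of an mRNA decides both which 3′UTR it carries and, where the end lies in an intron, which protein it encodes. The genes described here were chosen by name. They are *Map2*, *Mapt* and *Map4*, *Map1a* and *Map1b*, *Map6*, the doublecortin genes *Dcx* and *Dclk1*, and the stathmin genes *Stmn1* and *Stmn2*. Together the 10 genes hold 32 of the 56204 poly(A) site (PAS) entries in the deposited list, which covers 16627 genes.

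The PASs come from 3′READS of acute hippocampal mini-slices of C57BL/6 mice, labelled as 3 months old, from which the dentate gyrus had been trimmed. Slices were either given chemical LTP with forskolin, followed by forskolin with raised potassium and calcium, or treated with DMSO vehicle as controls. They were frozen 1 hr or 3 hr later, in 4 groups of 3 libraries, and control and LTP slices came from the same animals. The list of PASs is common to all 12 libraries. The read count columns carry names that match no library label and were not used, so the levels of these mRNAs, their response to LTP, the depth of each library and the markers of the tissue were not analysed here. Every listed site therefore counts equally below, whether rare or abundant in the libraries.

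*Mapt*, *Dcx*, *Dclk1*, *Stmn1* and *Stmn2* are listed under these symbols. The other 5 genes are listed under the older symbols *Mtap2*, *Mtap4*, *Mtap1a*, *Mtap1b* and *Mtap6*, so a search by current symbol finds only 5 of the 10. Each entry carries a region label. Sites labelled exon3 were read as PASs of the 3′-most exon, and exon3ext as PASs beyond its annotated end. The label intron_Comp was read as a composite terminal exon, in which an exon runs on into the intron, and intron_Skip as a terminal exon that is otherwise skipped. Of the 32 sites, 19 were labelled exon3, 7 intron_Comp, 5 intron_Skip and 1 exon3ext. No site was labelled UA, the label of upstream antisense sites, and none was listed under a second gene. All positions below are mm9 coordinates, the build in the submitters' processing notes, and distances run along the direction of transcription.

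**Figure D1:**
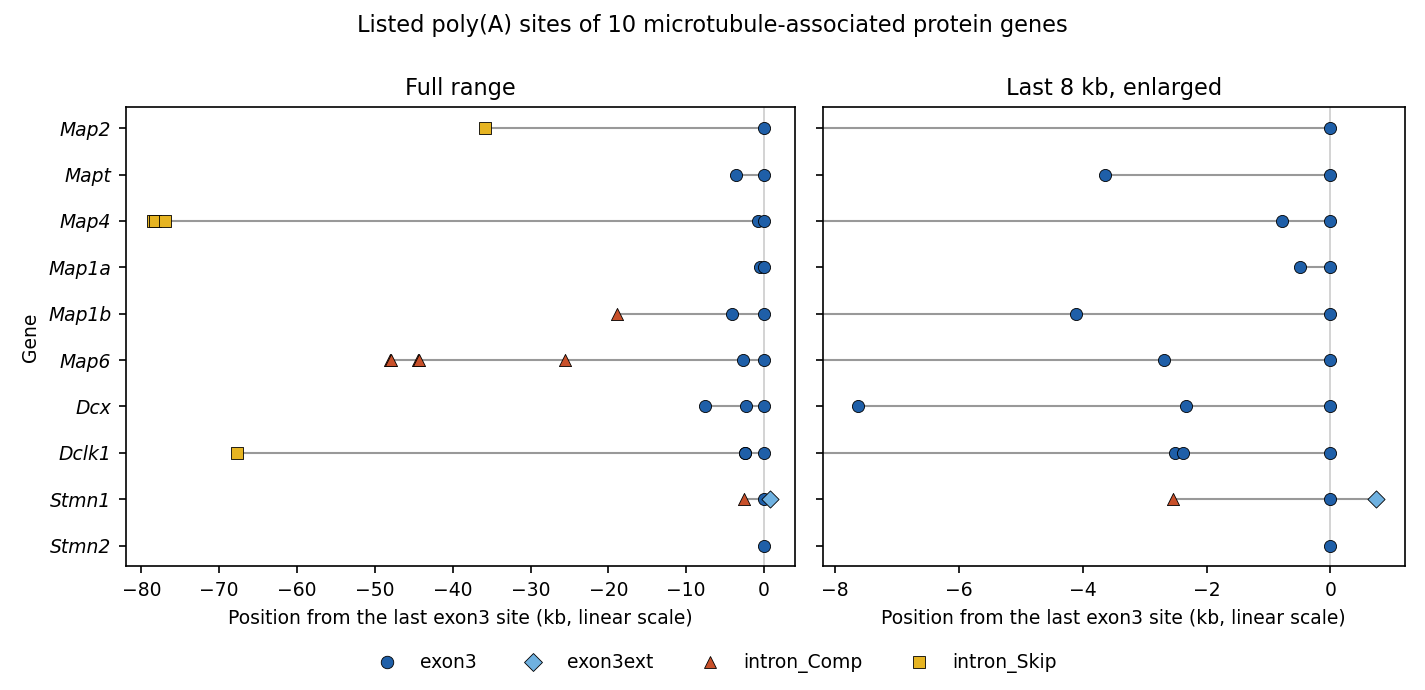
Each symbol is a listed PAS of the gene named at the left, placed by its distance in kb from the last exon3 site of that gene (0), with upstream to the left. The left panel shows the full range and the right panel enlarges the last 8 kb. Blue circles are exon3 sites, light blue diamonds exon3ext, red triangles intron_Comp and yellow squares intron_Skip. The intronic sites of *Map4*, *Dclk1*, *Map6* and *Map2* lie far upstream, between 22869 and 77776 nt from the first exon3 site, while *Stmn2* has a single site.

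The MAP2/tau family shares a microtubule-binding repeat region near the C-terminus, and its 3 genes differed in where their PASs lay. *Map2*, the classical marker of dendrites and cell bodies, had 1 exon3 site, at position 66489157 on the plus strand of chromosome 1. Its other PAS was an intron_Skip site at 66453335, 35822 nt further upstream. *Mapt* encodes tau, which is enriched in axons. It had no intronic site, and its exon3 sites on the plus strand of chromosome 11 lay at 104189763 and 104193410. The 3647 nt between them separate a short from a long 3′UTR, a distance greater than in 93.5% of the 7465 genes with a measurable pair of outermost exon3 sites.

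*Map4* encodes the member of this family that is also found widely outside neurons. Its 5 PASs, on the plus strand of chromosome 9, fell into distant groups. The intron_Skip sites were at 109907901, 109908250 and 109909420, within 1519 nt of each other. The exon3 sites were at 109985677 and 109986454, which put the last intron_Skip site 76257 nt upstream of the first exon3 site. The exon3 sites themselves were only 777 nt apart, near the middle of all genes, 48.7% of which had a shorter distance. *Map4* thus had 3 of the 5 intron_Skip sites of the set, and the others belonged to *Map2* and *Dclk1*.

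*Map1a* and *Map1b* encode large precursors that are cleaved into heavy and light chains, with *Map1b* the more prominent in developing neurons and *Map1a* in mature ones. Both had 2 exon3 sites, but the stretch between these sites differed. In *Map1a*, on the plus strand of chromosome 2, they lay at 121134678 and 121135172, or 494 nt apart, the shortest distance among the 10 genes. In *Map1b*, on the minus strand of chromosome 13, they lay at 100195532 and 100191419, or 4113 nt apart, a distance longer than in 95.1% of genes. *Map1b* also had an intron_Comp site at 100210342, which was 14810 nt upstream of its first exon3 site. No intronic site was listed for *Map1a*.

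*Map6* encodes the STOP protein, which makes microtubules resistant to cold. It had the most PASs of the set, 7 sites on the plus strand of chromosome 7, and only 13.0% of listed genes had as many or more. The label intron_Comp was given to 5 of them, a number of intronic sites reached or passed by 5.43% of listed genes. The first pair lay at 106420768 and 106420921, 153 nt apart, and the next pair at 106424373 and 106424575, 202 nt apart, so that these 4 sites fell within 3807 nt. The remaining intron_Comp site was at 106443307, 22869 nt upstream of the first exon3 site. The exon3 sites at 106466176 and 106468860 were 2684 nt apart.

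*Dcx* encodes doublecortin, a protein of migrating and newly born neurons, which in the adult hippocampus are found in the dentate gyrus. All 3 of its PASs were exon3 sites, on the minus strand of chromosome X at 140298013, 140292725 and 140290385. The first was 5288 nt upstream of the second, and the second 2340 nt upstream of the last. The outermost sites were 7628 nt apart, the longest distance in the set, and 99.1% of genes had a shorter one.

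*Dclk1* encodes a protein that joins doublecortin domains to a kinase domain, and is known to give shorter products as well. Its PASs lay on the plus strand of chromosome 3. An intron_Skip site at 55275239 was 65235 nt upstream of the first exon3 site. The exon3 sites at 55340474 and 55340595 were 121 nt apart, and the last exon3 site at 55342980 followed 2385 nt further on. From first to last, the exon3 sites of *Dclk1* covered 2506 nt, so both doublecortin genes had a long alternative stretch of 3′UTR, while an intronic site was listed for *Dclk1* alone.

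The stathmin genes, like *Map2*, had 1 exon3 site each. *Stmn2*, a neuronal stathmin of growing axons, was listed with a single PAS, at 8561606 on the plus strand of chromosome 3, as were 32.9% of all listed genes. *Stmn1*, on the plus strand of chromosome 4, also had a single exon3 site, at 134029751. A further PAS at 134030492, labelled exon3ext, lay 741 nt downstream of it. The intron_Comp site of *Stmn1* at 134027205 was 2546 nt upstream of the exon3 site, the shortest such distance among the 12 intronic sites. Of the 11301 intron_Comp sites in the list that lie upstream of the first exon3 site of their gene on the same strand and chromosome, 9.47% lay closer to it.

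Analyses of 3′UTR APA compare 2 PASs of the same 3′-most exon, and 7 of the 10 genes had 2 or more listed exon3 sites. The paper takes the 2 most abundant 3′UTR isoforms. Here reads were not used, and distances run between the outermost exon3 sites. *Map2*, *Stmn1* and *Stmn2* have 1 exon3 site each. Over all genes with an exon3 site, 49.5% had 2 or more. None of the 10 genes had 4 or more exon3 sites. Genes with 4 or more were a minority of all genes too, 2150 of the 15075 with any. In a set of only 10 genes, having none is close to that share. The median distance between the outermost exon3 sites was 2684 nt over the 7 genes and 817 nt over all genes. It was over 2000 nt in *Mapt*, *Map1b*, *Map6*, *Dcx* and *Dclk1*, or 5 of the 7, against 21.0% of all genes with 2 or more exon3 sites. These values are a description of a small set chosen by name, and no test was made on them. Both the genes and the 2000 nt limit were chosen with earlier results of these data known.

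**Figure D2:**
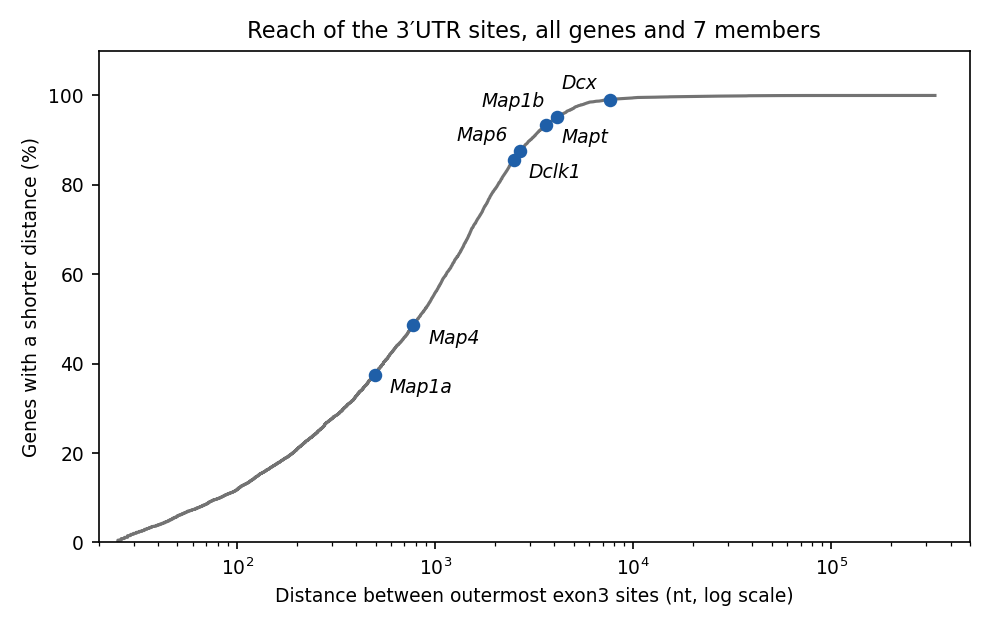
The grey curve gives, for the 7465 genes with a measurable distance between their outermost exon3 sites, the percentage of genes with a shorter distance, against that distance in nt on a log axis. The blue points mark the 7 microtubule-associated protein genes with 2 or more exon3 sites. *Map1a* and *Map4* lie at 37.5% and 48.7%, and the other 5 between 85.6% (*Dclk1*) and 99.1% (*Dcx*).

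An intronic PAS was listed for *Map2*, *Map4*, *Map1b*, *Map6*, *Dclk1* and *Stmn1*, or 6 of the 10 genes, where 33.5% of all listed genes had one. *Mapt*, *Map1a*, *Dcx* and *Stmn2* had none. Among the 31 sites of the set labelled as intronic or exon3, 38.7% were intronic, and the share over all genes was 32.7%. The 95% Wilson interval of the set's share, which covers counting error only, ran from 23.7% to 56.2%. It treats the 31 sites as independent, which sites of the same gene are not. No conclusion about a difference from all genes is drawn from it. Both shares are counts over the list, and *Map6* alone holds 5 of the 12 intronic sites. The list holds more PASs than the paper reports, and a larger share of them is intronic. The paper's supplement counts PASs library by library, above limits on reads and relative abundance, and its APA analysis left out outlier samples. No such limits were applied here and the list is common to all libraries, so minor sites count too. It also holds 3995 UA and 3406 exon3ext entries. What each of these adds to the difference was not tested.

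By type, 5 of the 12 intronic sites were intron_Skip, 3 of them in *Map4*, against 11.7% of the 15184 intronic sites of all genes. At least 1 intron_Skip site was listed for 3 of the 10 genes and for 5.82% of all genes, and at least 1 intron_Comp site for 3 of the 10 and for 31.0% of all genes. No gene of the set had both. The intron_Skip sites lay 35822 to 77776 nt upstream of the first exon3 site, with a median of 76257 nt that *Map4* sets, against a median of 23102 nt over the 1522 intron_Skip sites in the list whose distance to the first exon3 site downstream could be measured. The intron_Comp sites lay 2546 to 45408 nt upstream with a median of 41601 nt, which *Map6* sets, against 20152 nt over the 11301 measurable intron_Comp sites. Taken site by site, between 60.9% and 77.3% of the 1522 measurable intron_Skip sites lay closer to their first exon3 site than those of *Map2*, *Map4* and *Dclk1*. For the intron_Comp sites the same share was 9.47% in *Stmn1*, 42.0% in *Map1b* and between 53.3% and 70.0% in *Map6*.

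**Figure D3:**
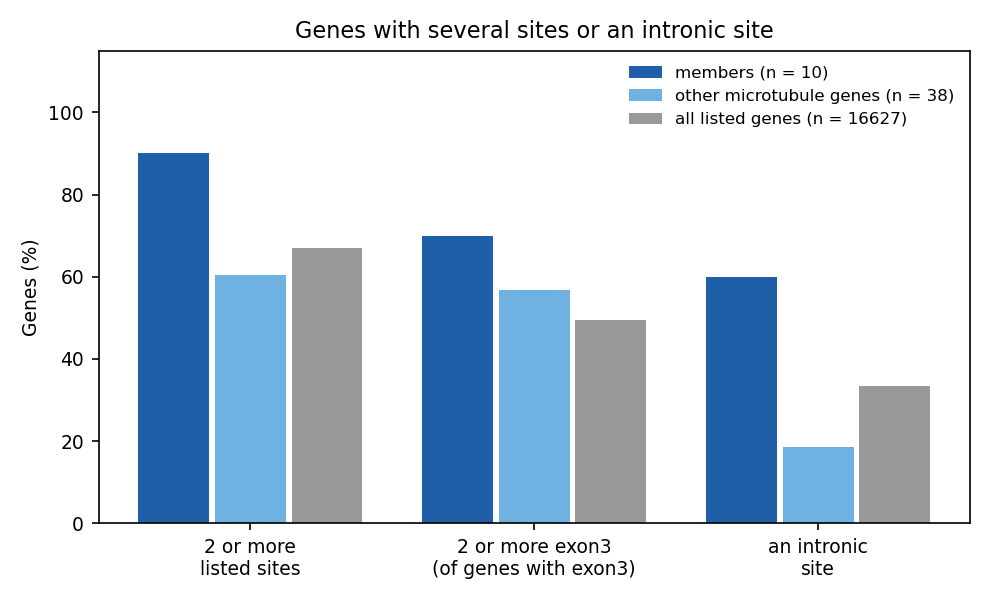
Bars give the percentage of genes with 2 or more listed sites, with 2 or more exon3 sites (among genes with at least 1) and with an intronic site, for the 10 genes (dark blue), 38 other listed microtubule genes (light blue) and all 16627 listed genes (grey). The 10 genes are highest in each, and the other microtubule genes have the lowest share with an intronic site. The bars carry no error, since each is a count over a fixed set of genes.

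A wider list of 40 genes for other microtubule proteins, among them end-binding, minus-end-binding, severing and cross-linking proteins, served as a nearer comparison. Of these, 38 were listed, 5 of them under an older symbol, and no PAS was found for *Fignl1* and *Map7d3*. Their median was 2 PASs per gene, against 3 for the 10 genes and 2 for all genes. An intronic site was listed for 7 of the 38, and 2 or more exon3 sites for 21 of the 37 with any. The 38 genes had 18 intronic sites, of which 3, or 16.7%, were intron_Skip. The distance between the outermost exon3 sites had a median of 1220 nt. It was over 2000 nt in 8 of these 21 genes, or 38.1%, which lies between the share of the 10 genes and that of all genes. *Map6d1*, a relative of *Map6*, had the most PASs, 14, of which 11 were exon3 sites within 2355 nt and 1 was intronic. In *Map6* itself 2 sites were exon3 and 5 intronic. *Clip1*, which tracks growing microtubule ends, and *Katnal2*, related to the severing enzyme katanin, had 9 PASs each, 4 and 6 of them intronic. The relatives *Stmn3*, *Stmn4*, *Dclk2* and *Map1s* had a single exon3 site and no other PAS, as *Stmn2* did, whereas *Dclk3* had 3 exon3 sites within 490 nt. A single PAS was common in this list, in 15 of the 38 genes or 39.5%, against 32.9% of all genes.

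No PAS of another gene was listed between the outermost sites of the 9 genes with more than 1 PAS. Beyond the last site, the nearest entry of another gene was closest in *Map4*, where an exon3 site of *Dhx30* on the opposite strand lay 370 nt downstream. An exon3 site of *Ppip5k1* lay 1125 nt beyond *Map1a*, and one of *1700081L11Rik* lay 1221 nt beyond *Mapt*, both also on the opposite strand, so that these gene pairs end towards each other. Such a convergent exon3 site within 2000 nt was listed for 11.9% of the 16549 genes whose sites lie on a single strand and chromosome, and for 3 of the 10. In the other genes the next entry was further away, from 4869 nt beyond *Map1b* to 101755 nt beyond *Stmn2*.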

How the data were processed

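The authors prepared 3′READS+ libraries, mapped the reads with bowtie 2, called PASs from reads with unaligned Ts and clustered neighbouring PASs. The submitters' processing notes name mm9. The deposited table describes each site by gene, place in the genome and label, and adds 12 columns of read counts. The names of these 12 columns match no library label, and a column was to be used only if its name did, so they were left out and no comparison between groups was made. How deep the libraries are was therefore not used here.

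Sites were counted per gene and label, and distances taken within a gene, with Python 3.11.15, pandas 2.3.3, numpy 2.4.6 and scipy 1.17.1. Figures were drawn with matplotlib 3.10.9. The counting was checked on simulated lists. No site was filtered out of the counts. Distances from an intronic site to the first exon3 site were taken only where the gene's sites other than UA lie on a single strand and chromosome and the intronic site is upstream. The meaning of the labels was taken from their names. Genes not listed under their current symbol were matched through the synonyms of RefSeq. The reference at hand was GRCm38, another build, so neither coordinates nor sequence at the sites were taken from it. The genes, the wider list and the distance limits were chosen with earlier results of these data known. All 10 genes were to be described, and of the wider list those with the most sites or none. The named relatives (*Stmn3*, *Stmn4*, *Dclk2*, *Dclk3* and *Map1s*) and the neighbouring genes were chosen after their values were seen.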

Additional observations from a re-analysis of the deposited data

How the results depend on the processing

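No paired analysis was possible because no count column could be tied to a library by its name. The number of sites was 32 without UA sites, without sites listed under several genes and with sites within 100 nt merged. None of these settings could change it. The 10 genes have no UA site and no site listed under a second gene, and their closest sites, in *Dclk1*, lie 121 nt apart. The genes with 2 or more 3′UTR sites rose from 7 to 8 when exon3ext sites were counted, which adds *Stmn1*. They were 7 with near sites merged or without sites listed under several genes, which for the same reason could not change them. Counting exon3ext sites also moved the median distance between outermost 3′UTR sites from 2684 to 2595 nt, and the intronic share from 38.7% to 37.5%. The values over all genes were not recomputed with exon3ext sites counted, so the comparisons with all genes hold for the main setting only. Genes with an intronic site fell from 6 to 3 with intron_Comp sites alone, since *Map2*, *Map4* and *Dclk1* have only intron_Skip sites. Merging left the share at 38.7%, since it removed no site of these genes. The number of reads at each site, which was not used, limits what a listed site can show.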
